A study of Mus musculus with 6 samples.

Results

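Cytosolic ribosomal protein genes encode the proteins that, together with ribosomal RNA, build the small ribosomal subunit, which decodes mRNA, and the large subunit, which forms peptide bonds. They were taken as every symbol made of Rpl or Rps, a number and at most 1 letter, with Rplp0, Rplp1, Rplp2 and Rpsa, and without pseudogene symbols ending in -ps and the Rps6k kinases. This gave 80 genes of 31053 in the tables, 49 of the large and 31 of the small subunit. The mRNAs of these genes are among the most abundant of a growing cell. Many begin with a run of pyrimidines at the 5′ end, through which mTOR signalling and the RNA-binding protein LARP1 control their translation and stability. In the developing lung, the endothelium and mesenchyme expand before birth and mature after it.

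Single-cell RNA-seq of mouse lung was available from 6 libraries of 3′ tags, 1 per group, with the lungs of several animals pooled for each sorted one. Of these, 4 held cells sorted for Cxcl12-DsRed from Cxcl12DsRed/+ lungs before birth, at embryonic day 13.5 (E13.5), at E15.5 and at E18.5, or after it, at postnatal day 8 (P8), and 2 held unsorted lungs at E18.5, labelled Cxcl12DsRed/DsRed (homozygous null) and Cxcl12DsRed/+ (heterozygous control). All 6 groups carried at least 1 copy of the DsRed allele, a reporter placed in the Cxcl12 locus. The sort removed CD45+ and EpCAM+ cells and kept DsRed+ cells, so the sorted cells were those in which the Cxcl12 locus was active. The authors' results give a CD31+ gate for all time points, while their methods also name collection of CD31- cells. Which libraries held CD31- cells is therefore not settled, and neither is the gate through which the mesenchymal cells of each library came. Because each group had 1 library, no difference below carries a test, and age, sort, capture and library cannot be told apart. Intervals are at 95% and cover the counting of unique molecular identifiers (UMIs) alone.

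Cxcl12 itself went against the labels of the whole lungs. The library labelled null held 192 Cxcl12 counts per 1000000 UMIs (CPM; 19986 UMIs) and the library labelled control held 1.27 CPM (109 UMIs), and the names of the deposited files give the opposite genotypes. They are called the library labelled null and the library labelled control throughout, and no direction of genotype is drawn. The libraries held 63746333 to 117522172 UMIs. After filtering, 8268 to 12726 cells per library remained, with medians of 5647 to 9030 UMIs. The libraries labelled null and control shared 140 cell barcodes, 1.42% of those of the library labelled null. Any other 2 libraries shared 20 to 54. Endothelial cells (ECs) were cells with at least 2 UMIs of Pecam1 and Cdh5, mesenchymal cells those with at least 5 of Col1a1 and Col3a1, epithelial cells those with at least 2 of Epcam and Cdh1, and immune cells those with at least 2 of Ptprc, Laptm5 and Coro1a. The 40 to 702 cells per library that met more than 1 rule were left out. In ECs, 6 endothelial markers that the rule did not use summed to 4898 to 11500 CPM, against 10.6 to 162 CPM for 6 mesenchymal, at most 89.98 CPM for 6 epithelial, 0 to 12.7 CPM for 6 immune and 22.0 to 237 CPM for 6 erythroid markers.

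Transcription start sites of members with the lowest and the highest P8 to E15.5 ratios are shown first, since the pyrimidine run is the feature the family is known for. Each line gives 30 bases from RefSeq (GRCm38.p6), 15 before and 15 from the annotated first base, 5′ to 3′ on the gene's strand. Capitals mark a run of at least 5 C or T that begins with C within 10 bases of the start.
Rpl35: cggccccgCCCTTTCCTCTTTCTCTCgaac
Rpl10: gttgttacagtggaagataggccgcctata
Rpl41: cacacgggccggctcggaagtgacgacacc
Rps28: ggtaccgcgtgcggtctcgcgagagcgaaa
Rpl27: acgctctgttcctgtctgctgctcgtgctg
Rpl26: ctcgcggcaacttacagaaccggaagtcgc
Rps6: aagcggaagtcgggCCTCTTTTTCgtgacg
Rps25: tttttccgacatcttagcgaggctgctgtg
They lie at chr2:39005117-39005146 (minus strand), chrX:74270801-74270830 (plus), chr10:128549154-128549183 (minus), chr17:33824548-33824577 (minus), chr11:101442230-101442259 (plus), chr11:68901551-68901580 (plus), chr4:86857353-86857382 (minus) and chr9:44407699-44407728 (plus), in the order listed. The first 4 genes were among the members with the lowest P8 to E15.5 ratios and the last 4 among those with the highest. A run stood in 1 of the first 4 windows and in 1 of the last 4. Start sequences were found for 60 of the 80 members, and 38 of these (63.3%) had such a run, against 33.3% of 27025 genes. A run was also found in 43.5% of 69 mitochondrial ribosomal protein genes, in 26.7% of 30 translation factor genes and in 26.7% of 30 ribosome assembly genes. A match says nothing of whether the run is used, and annotated starts can differ from those in use. They can also lie well inside the gene: the window of Rps25 begins at chr9:44407699 and the gene at chr9:44407139. Whether a run is found within 10 bases therefore depends on the start taken.

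The share of EC UMIs that came from the 80 genes was lower at each later time point. E13.5 ECs had 23.08% (23.01 to 23.16, 166 cells) and E15.5 ECs 22.77% (22.76 to 22.78, 8745 cells). E18.5 ECs had 17.20% (17.19 to 17.21, 8991 cells) and P8 ECs 12.26% (12.25 to 12.27, 8203 cells). E13.5 and E15.5 lay close together, with a difference of -0.31 percentage points, whereas the share decreased by 5.57 points from E15.5 to E18.5 and by 4.94 points from there to P8. The P8 share was 0.539 times that at E15.5. The middle 50% of single ECs spanned 19.9 to 25.1% in the E15.5 library and 14.3 to 19.3% in the sorted E18.5 library. In the P8 library it spanned 10.5 to 13.7%, and these ranges did not overlap. In whole-lung ECs of E18.5 it spanned 17.49 to 22.7% (labelled null) and 17.15 to 23.21% (labelled control), which overlaps the E15.5 range. ECs thinned to 2000 UMIs gave mean shares of 22.3%, 16.8% and 12.1% in the sorted E15.5, E18.5 and P8 libraries. This left out 19, 141 and 197 cells.

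**Figure D1:**
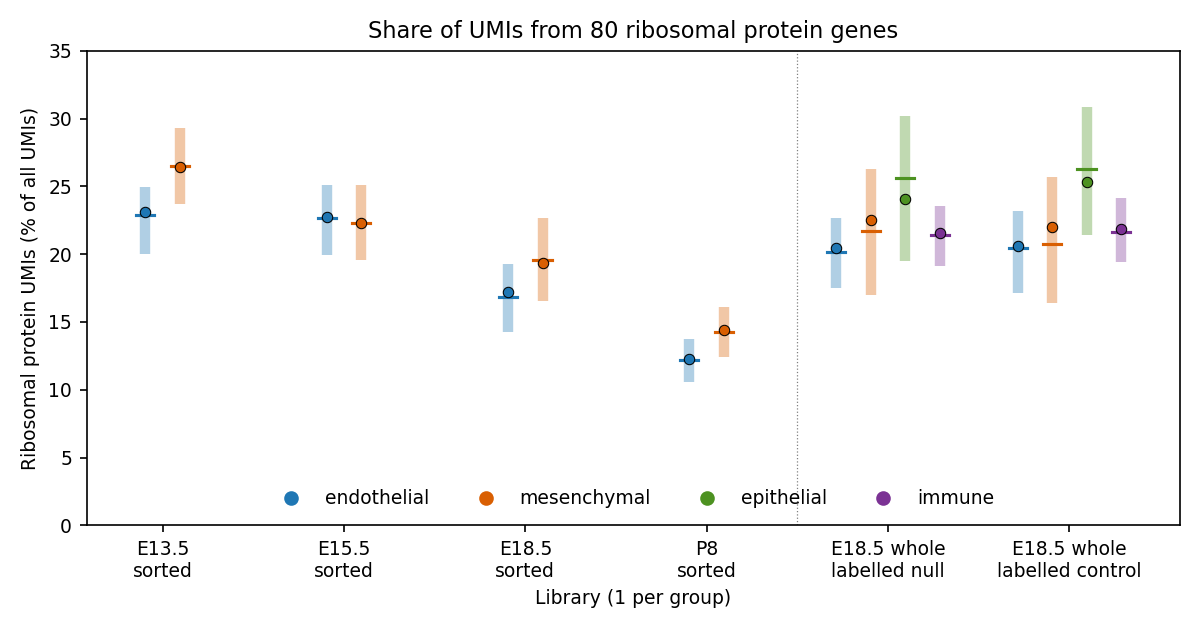
Share of UMIs from the 80 ribosomal protein genes (y axis, % of all UMIs) in each library and cell class (x axis and colour). Circles are the pooled share, ticks the median cell and pale bars the middle 50% of cells, a spread between cells and not between lungs. The EC share is 22.8% at E15.5 and 12.3% at P8, and the whole-lung ECs at E18.5 lie at 20.4% and 20.6%, above the sorted ECs of that age at 17.2%.

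Mesenchymal cells of the same libraries were in the same order. E13.5 cells had 26.43% (26.42 to 26.44, 11237 cells), E15.5 cells 22.30% (22.28 to 22.32, 2058 cells), E18.5 cells 19.36% (19.31 to 19.41, 282 cells) and P8 cells 14.38% (14.29 to 14.48, 68 cells). The steps were -4.14, -2.94 and -4.98 points. ECs minus mesenchymal cells gave -3.35 points in the E13.5 library, 0.47 in E15.5, -2.16 in E18.5 and -2.12 in P8. By these pooled shares, mesenchymal cells were higher in all but the E15.5 library. That exception depended on the weighting of cells. In the E15.5 library the mean over cells was 22.29% in ECs and 22.33% in mesenchymal cells. Thinned cells had means of 22.3% and 22.36%, whereas the median cell had 22.67% and 22.3%. By gene, 70 of 77 members were lower in ECs than in mesenchymal cells of the E13.5 library (48.4% of all genes of at least 50 CPM in either class), 26 in the E15.5 library (40.6%), 62 in the E18.5 library (39.9%) and 67 in the P8 library (46.4%). At least 1.5-fold apart were 0, 1, 4 and 7 members. Of all genes, 16.7% were lower and 20.6% higher in ECs of the E13.5 library. The exception in the E15.5 library was Rpl29, higher in ECs (22.7% of all genes, with 18.5% lower). The 4 and 7 members of the later libraries were lower in ECs (19.2% and 21.1% of all genes), and none was higher (28.1% and 27.2%). Since both classes share each library, they are not independent series.

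The yardstick for a difference between preparations is the E18.5 lung, which was captured both sorted and whole. Whole-lung ECs had a share of 20.42% (20.41 to 20.44, 2623 cells) in the library labelled null and 20.58% (20.56 to 20.60, 1709 cells) in the library labelled control. Sorted minus whole-lung ECs gave -3.22 and -3.38 points. The whole-lung ECs were not selected for DsRed, so makeup and preparation cannot be told apart in this gap. ECs with at least 3 UMIs of Gja4 and Gja5 made 59.05% of sorted ECs, 44.64% of those labelled null and 23.99% of those labelled control. Within them the shares were 16.98%, 19.91% and 19.89%. At least 1.5-fold lower in the sorted ECs were 11 of 77 members against the library labelled null (2.82% of all genes) and 9 against the library labelled control (4.24%), with Rpl27 lowest in both comparisons. With the SoupX-adjusted values the whole-lung ECs labelled control had 18.50%, and the gap to them was -1.29 points, while those labelled null had 20.32%, with a gap of -3.12 points. The unadjusted gaps between libraries of 1 age were smaller than the difference of -5.57 points from E15.5 to E18.5, but of the same order. P8 minus whole-lung ECs gave -8.16 and -8.32 points, and whole-lung minus E15.5 ECs -2.35 and -2.19 points, so the order of the 3 ages was the same with either preparation of E18.5. Sorted minus whole-lung mesenchymal cells of E18.5 gave -3.16 and -2.62 points. The whole-lung mesenchymal cells had 22.51% (labelled null) and 21.98% (labelled control), against 22.30% in the sorted E15.5 library. The first lay above the E15.5 share and the second below it, so the mesenchymal step from E15.5 to E18.5 depended on the preparation.

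Other measures differed between the same libraries, and their part in the shares was not tested. The UMIs of Gm42418, a gene that overlaps ribosomal RNA, made 0.15% of EC UMIs in the E15.5 library, 0.43% in E18.5 and 1.10% in P8, and those of the nuclear RNA Malat1 made 1.28%, 3.18% and 2.44%. Median mitochondrial shares were 5.19%, 3.997% and 3.53%, and median EC depths were 8420, 5643 and 5650 UMIs. Software version 3.0.2 stands in the matrix headers of the E15.5, E18.5 and P8 libraries and 3.1.0 in the other three. With the ECs of a library cut into 4 bins by depth, the shallowest bin had the lowest share, 20.6% against 23.4% in the deepest for E15.5 and 11.1% against 12.3% for P8. All 4 bins of P8 were below all 4 of E15.5.

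ECs grouped by genes of finer types showed the same order in time. ECs with at least 3 UMIs of the arterial gap junction genes Gja4 and Gja5 made up 92.77% of ECs in the E13.5 library and 70.02% in the E15.5 library. Among these ECs, E13.5 had 22.83% (154 cells), E15.5 21.93% (6123 cells), E18.5 16.98% (5309 cells) and P8 12.42% (5587 cells). From E13.5 to E15.5 the share differed by -0.90 points in these ECs and by -1.57 points in the others (26.18% and 24.61%), against -0.31 points in all ECs, where the makeup of the class differed. Among ECs with at least 2 UMIs of Car4 and Apln, genes of the aerocyte capillary cell, the shares of the last 3 of these libraries were 23.93% (297 cells), 16.49% (1119 cells) and 11.84% (1956 cells). Arterial-gene minus other ECs gave -2.68 points at E15.5 and 0.65 points at P8. ECs with lymphatic genes (Prox1 and Mmrn1) stood above the rest, with 24.36% (524 cells) in the E15.5 library and 19.27% (133 cells) in the E18.5 library.

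Single members were then compared by their pooled EC levels at P8 and E15.5. Ratios are log2 of CPM plus 0.5, over genes of at least 50 CPM in 1 of the groups, and a ratio of at least 1.5-fold was counted. Ratios are taken within a gene only, since the part of the 3′ end shared with copies, described below, differs between genes. At this floor 77 of 80 members were compared and 3 (Rpl3l, Rpl10l and Rpl39l) fell under it. Of the 77, 60 were at least 1.5-fold lower at P8, against 14.4% of 3726 genes, and 23 were at least 2-fold lower, against 6.20%. Only Rpl27 was at least 1.5-fold higher, against 30.1% of all genes. The log2 ratio was below 0 for 76 members, against 40.7% of all genes. The median log2 ratio was -0.81 for the members and 0.19 for all genes, so the members lay 1 log2 unit below the median of all genes. CPM are parts of a fixed total, of which the members held 22.77% at E15.5 and 12.26% at P8. Their lower share by itself raises the CPM of other genes. The background shares here and in the comparisons below are therefore not independent of the members. Both subunits took part, with medians of -0.86 for the 46 large-subunit and -0.73 for the 31 small-subunit members. The large subunit held 12.75% of EC UMIs at E15.5 and 6.75% at P8, and the small subunit 10.02% and 5.51%.

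**Figure D2:**
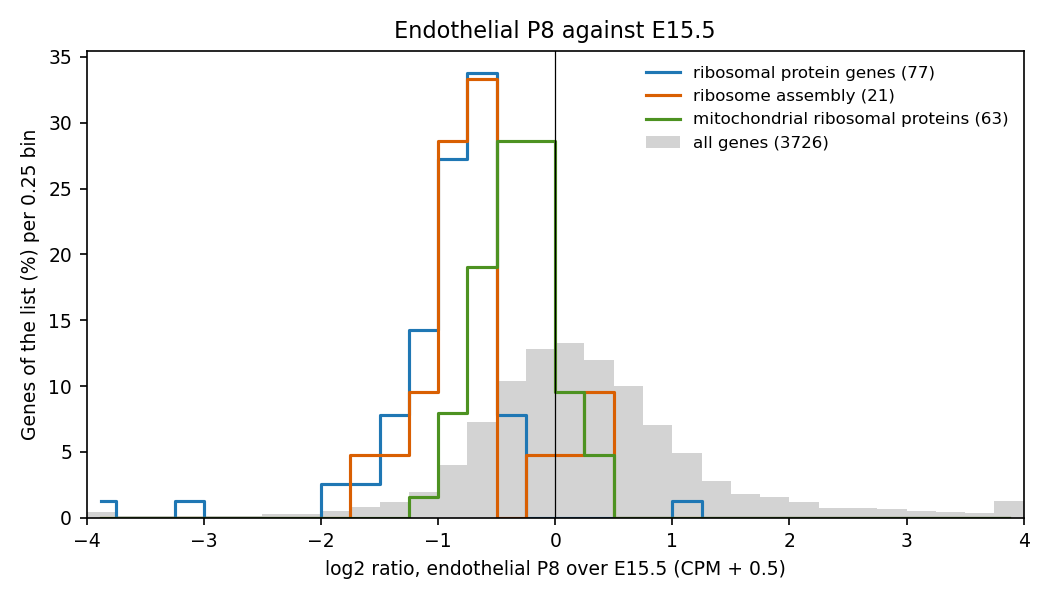
Distribution of log2 ratios (x axis, endothelial P8 over E15.5, CPM plus 0.5) as the percent of each gene list per bin (y axis); the outermost bins also hold values beyond 4. Ribosomal protein and ribosome assembly genes peak between -1 and -0.5, mitochondrial ribosomal protein genes between -0.5 and 0, and all genes around 0; 8 of the 21 assembly and 8 of the 63 mitochondrial genes pass 50 CPM through E15.5 alone, and such genes can only have ratios below 0.

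At the first step, from E15.5 to E18.5, 19 members were at least 1.5-fold lower, against 12.4% of 3579 genes, and none higher, against 22.9%, with a median of -0.41 against 0.11 for all genes. At the second, from E18.5 to P8, 21 were lower, against 7.46% of 3685 genes, and 2 higher, against 11.8%, with a median of -0.43 against 0.08. Lower at both steps were 67 of 77 members, against 16.8% of 3388 genes. The 10 exceptions were Rpl10, Rps27 and Rps6, higher at the first step, and Rpl27, Rpl29, Rpl26, Rps2, Rps18, Rps25 and Rps27l, higher at the second. With the whole-lung ECs labelled null in place of the sorted E18.5 ECs, the median was -0.15 for E18.5 against E15.5, with 4 members lower (11.1% of all genes) and 2 higher (17.5%). It was -0.69 for P8 against E18.5, with 43 lower (8.41%) and 2 higher (16.7%). Thus 59 of 77 members were below 0 at the first step by that preparation, against 48.7% of all genes, and 74 at the second, against 35.9%.

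**Figure D3:**
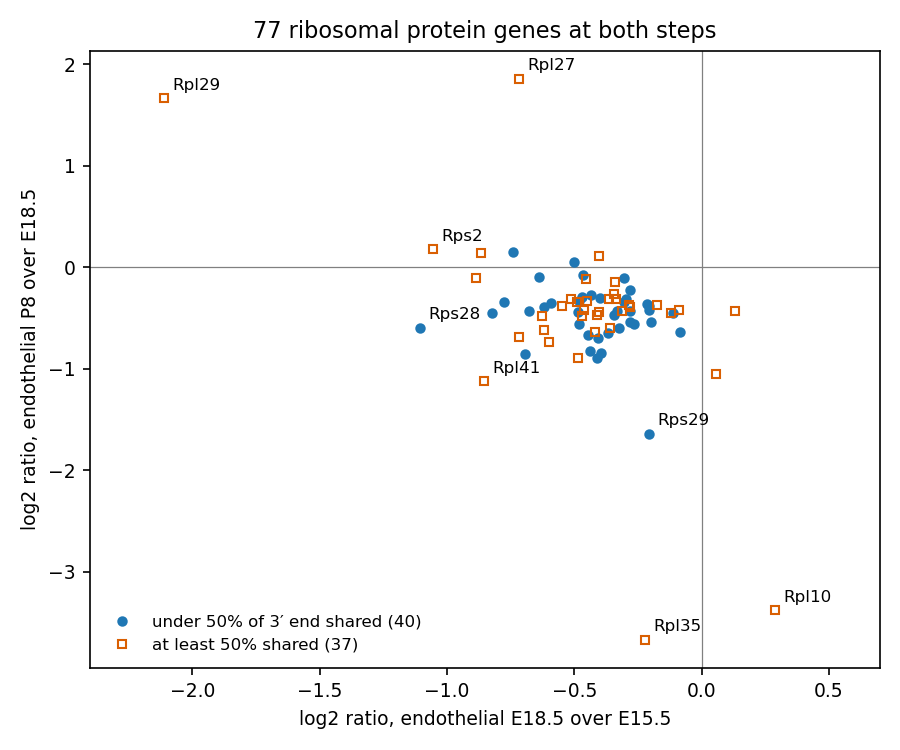
Log2 ratios of 77 ribosomal protein genes in ECs for E18.5 over E15.5 (x axis) and P8 over E18.5 (y axis); squares mark genes that share at least 50% of the stretches of their 3′ end with another gene. Most members lie below 0 on both axes, and Rpl35, Rpl10, Rpl27 and Rpl29 stand apart.

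Among the largest differences was that of Rpl35, a protein near the exit of the large subunit's peptide tunnel (chr2:39001580-39005624, minus strand, GRCm38). Its EC level was 1182, 1759, 1510 and 118 CPM in the sorted libraries from E13.5 to P8, and 1485 and 1622 CPM in the whole lungs labelled null and control. P8 alone was low, 14.9-fold below E15.5, with a log2 ratio of -3.89 (-3.93 to -3.86). Mesenchymal cells showed the same pattern, with 1224, 1663, 1590 and 102 CPM in the 4 sorted libraries. Rpl10, which completes the large subunit late in its assembly (chrX:74270812-74273135, plus strand), had 822, 1222, 1494 and 143 CPM in ECs and 981, 1285, 1762 and 206 CPM in mesenchymal cells. Its EC log2 ratio of P8 to E15.5 was -3.09 (-3.13 to -3.06), 8.54-fold lower. For both genes P8 lay below every other library in both cell classes.

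Rpl27 (chr11:101442298-101445529, plus strand), a large-subunit protein, went the other way. Its EC level was 691, 503, 306 and 1111 CPM from E13.5 to P8, and 679 and 637 CPM in the whole lungs, with a P8 to E15.5 log2 ratio of 1.14 (1.13 to 1.16). In mesenchymal cells it was 694, 396, 281 and 1287 CPM. Rpl29 (chr9:106429454-106431568, plus strand), a large-subunit protein that binds heparin at the cell surface in some settings, had 211, 638, 147 and 469 CPM in ECs and 228, 248, 150 and 437 CPM in mesenchymal cells. E15.5 was therefore high in ECs but not in mesenchymal cells of the same library, and P8 was high in both.

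**Figure D4:**
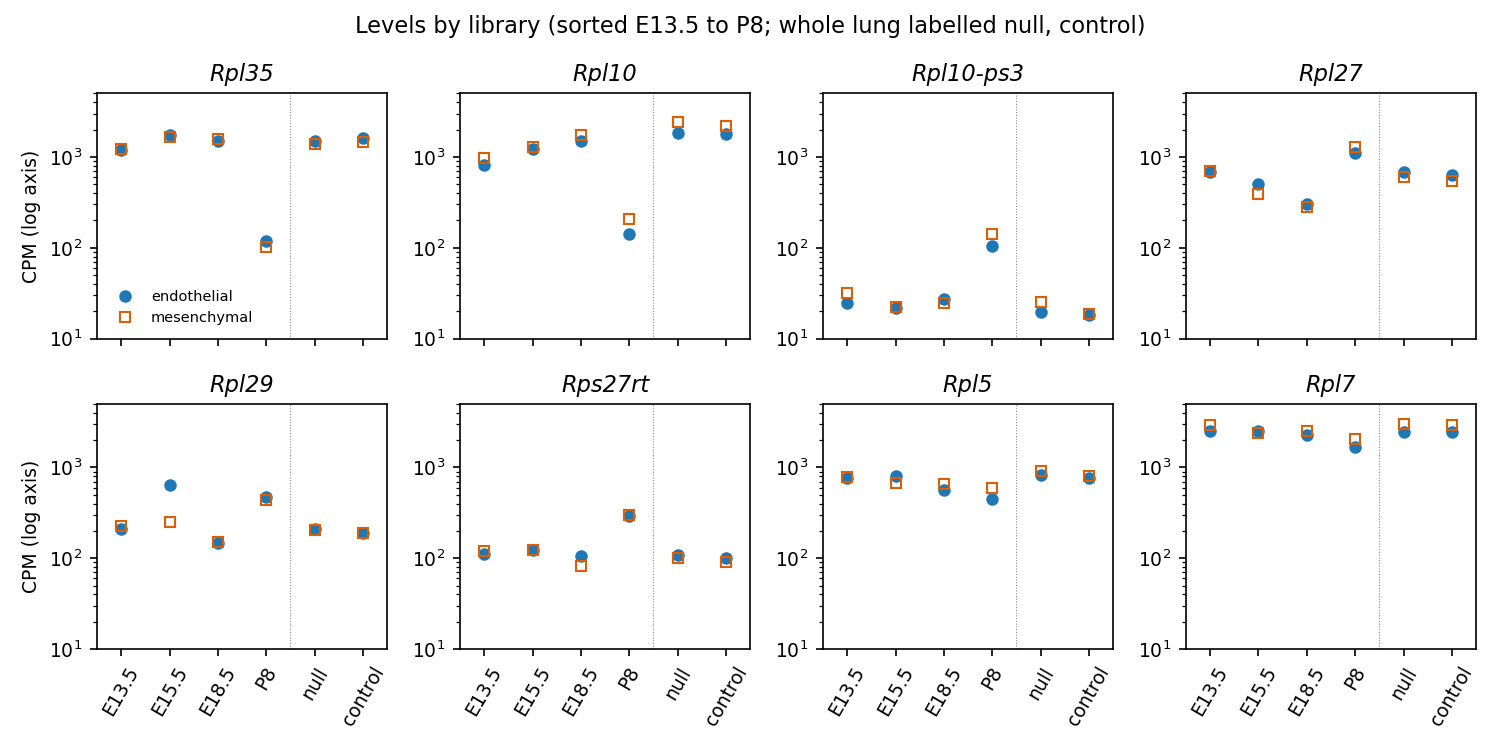
Levels in CPM (y axis, log axis) of 6 members, Rps27rt and Rpl10-ps3 in ECs (circles) and mesenchymal cells (squares) of each library (x axis). At P8 Rpl35 is at 118 CPM and Rpl10 at 143 CPM in ECs, under every other library, while Rpl27, Rps27rt and Rpl10-ps3 are above every other, with mesenchymal cells in the same places.

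The next lowest ratios were those of Rpl41, the shortest ribosomal protein, Rps29 and Rps28, small proteins of the small subunit. Rpl41 had 6816, 3768 and 1735 CPM in ECs of E15.5, E18.5 and P8, a log2 ratio of -1.97 (-1.98 to -1.96). Rps29 had 5623, 4878 and 1566 CPM, a log2 ratio of -1.84, and most of its difference lay between E18.5 and P8. Rps28 had 2813, 1306 and 865 CPM, a log2 ratio of -1.70, and most of its difference lay before E18.5 by the sorted library. Whole-lung ECs of E18.5 had 2091 (labelled null) and 2405 CPM (labelled control) of Rps28, which places most of its difference after E18.5. After Rpl27, the highest ratios were those of Rpl26 (-0.29, 1311 and 1072 CPM at E15.5 and P8), Rps6 (-0.30, 1209 and 985 CPM), Rpl8 (-0.41, 2912 and 2192 CPM) and Rps25 (-0.44, 1020 and 750 CPM). RPS6 is the small-subunit protein phosphorylated downstream of mTOR. All 4 stayed within 1.5-fold.

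Ribosomal protein genes have many processed copies, so every run of 60 bases in the final 300 bases of each member's transcripts was looked up in the other annotated genes (GENCODE M21). Such stretches were found for 69 of the 80 members, and for 37 they made at least 50% of the 3′ end. Not every copy was among the counted genes: Rps6 and Rpl13 each shared 82.6% of their stretches but had 0 counted copies. Levels of members with a counted copy are uncertain, since reads in these stretches can be dropped or given to it. For the other members the effect of sharing was not tested. Of the stretches of Rpl35, 95.9% occurred elsewhere, as did 88.1% of those of Rpl10, 59.1% of those of Rpl27 and 57.1% of those of Rpl29. All of these had counted copies: Gm10269, Gm2000 and Gm49368 for Rpl35, Rpl10-ps3, Rpl27-ps3, and Gm17669 and Gm3550 for Rpl29. The median P8 to E15.5 log2 ratio was -0.83 for the 37 with more sharing and -0.81 for the 40 with less, while their standard deviations were 0.78 and 0.33. Both groups mix members with and without counted copies. The 8 measured members with no shared stretch include Rpl12, Rps20 and Rpl4. Their median was -1.02, and 7 were at least 1.5-fold lower, against 14.4% of 3726 genes. The part of reads lost to copies in these levels was not tested. Members with a pyrimidine run near the start had a median of -0.81 (35 genes, 29 at least 1.5-fold lower). Those without had a median of -0.77 (22 genes, 17 lower), and 14.4% of all genes were that much lower.

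The rule missed 8 genes of ribosomal proteins or of close relatives. Of these, Rps3a1, Fau and Rack1, which encode proteins of the small subunit, were lower at P8 than at E15.5 in ECs, with log2 ratios of -0.58, -0.44 and -0.78. Rpl22l1, a paralog of Rpl22, had 1746, 816 and 488 CPM from E15.5 to P8, a log2 ratio of -1.84, whereas Rpl22 had 1973, 1426 and 1162 CPM. Rpl7l1 had 103 and 86.0 CPM at E15.5 and P8. Higher at P8 were Rpl36al (306 and 494 CPM) and Rps27rt, a retrogene of Rps27 (124 and 291 CPM). Mesenchymal cells had 287 and 552 CPM of Rpl36al and 123 and 299 CPM of Rps27rt, so both were higher at P8 in both classes. Of the stretches of Rps27, 56.3% occur in another gene, Rps27rt among them.

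Paralogs within the set were nearly silent, apart from Rps27l. Rpl10l had no UMI in 15 of the 16 groups of cells and 2 UMIs in sorted E18.5 ECs, and 0 UMIs at P8 allow up to 0.0493 CPM in ECs. Its partner Rpl10 had 143 CPM in the same cells. Rpl3l, known from heart and skeletal muscle, was at 7.11 CPM (5.54 to 8.98) and 10.8 CPM (8.84 to 13.1) in immune cells of the libraries labelled null and control, and at 1.40 CPM or less in every other class. Rpl39l was at 2.54 and 3.75 CPM in these immune cells and at 0.37 CPM or less elsewhere. Rpl3 in the same immune cells was at 2198 and 2066 CPM and Rpl39 at 4111 and 4657 CPM. Rps27l, which is known as a p53 target, ran from 343 to 573 CPM in ECs, with its highest level at E15.5, and its partner Rps27 from 1574 to 4245 CPM. Rps4x, on the X chromosome, had 4166, 3393 and 2744 CPM in ECs of the 3 later sorted libraries.

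In mesenchymal cells the members were also compared between E13.5 and E15.5, where the EC share was nearly level. The median log2 ratio of the 77 members was -0.26 against -0.09 for all genes, with 9 members at least 1.5-fold lower (13.7% of 3267 genes) and none higher (15.2%), and 62 were below 0 (55.7%). Lowest were Rps15 (1367 and 651 CPM, log2 ratio -1.07), Rpl26 (1927 and 1004 CPM, -0.94) and Rpl13a (207 and 112 CPM, -0.88). Highest were Rpl39 (4386 and 6040 CPM, 0.46), Rpl35 (0.44) and Rpl10 (0.39). In ECs the same step gave a median of -0.02 for members and for all genes, with 2 members lower (8.82%), 1 higher (8.7%) and 41 below 0 (52.0%), and Rps15 was lowest there too, with 1140 and 653 CPM. From E15.5 to P8 the mesenchymal median was -0.58 against 0.17 for all genes, with 36 members lower (13.9%), 2 higher (28.1%) and 72 below 0 (39.3%). Rpl27 (1.70) and Rpl29 (0.82) were the 2 higher ones. Its first step, to E18.5, had 3 members lower (8.32%) and a median of -0.19, and its second, to P8, had 13 lower (10.9%), 2 higher (19.3%) and a median of -0.36.

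Genes that serve the ribosome without being part of it were set beside the members over 1 set of genes, those with a mean of at least 50 CPM over the 6 groups of ECs, since a floor met through E15.5 alone favours lower ratios later. All 77 members met this, as did 12 of 35 ribosome assembly genes. The mean includes the early groups, so this bias need not be gone. Of the 12, 2 had at least 50 CPM in E15.5 but not in sorted E18.5 ECs. Likewise 2 fell under it in ECs labelled null, and 0 in P8 ECs. For P8 against E15.5 these 12 had a median log2 ratio of -0.76 and 9 were at least 1.5-fold lower, against 14.4% of 3225 genes. Npm1, a nucleolar chaperone, had 1878 and 569 CPM (-1.72), and Nhp2, of the box H/ACA ribonucleoproteins, 194 and 69.4 CPM (-1.48), while Ubtf, a factor of RNA polymerase I (0.28), and Rrp1 (0.31) were slightly above 0. Between E15.5 and E18.5 the 12 genes had a median of -0.92, with 8 lower (11.0% of all genes), and with the whole-lung ECs labelled null a median of -0.84, with 9 lower (9.46%). Between E18.5 and P8 their median was 0.09, with 1 lower (7.19%). The members had medians of -0.41 and -0.43 at these steps, and the difference between the lists was not tested.

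The 55 of 78 mitochondrial ribosomal protein genes in this set had a median of -0.36 for P8 against E15.5, with 12 at least 1.5-fold lower, against 14.4% of all genes. Of the 63 with at least 50 CPM in 1 of both groups, Mrpl11 (-1.06) and Mrpl28 (-0.85) were lowest and Mrps28 (0.26) and Mrpl27 (0.34) highest. Their medians were -0.49 at the first step and 0.12 at the second. The 37 of 38 translation factors had a median of -0.30 with 9 lower, against the same 14.4% of all genes. Eif3j1 (73.0 and 29.9 CPM, -1.27) and Eef1b2, an exchange factor for elongation (1444 and 743 CPM, -0.96), were lowest, and Eif4h (0.39) and Pabpc1, the cytoplasmic poly(A)-binding protein (332 and 488 CPM, 0.55), highest. Of the 10 regulators, 4 could be compared: Eif4ebp1 (-0.54), Rps6kb1 (0.36), Eif4ebp2 (0.39) and Mxd4, a repressor that competes with MYC for MAX (97.3 and 197 CPM, 1.01). The cell cycle markers, which move with the same libraries, summed to 861 CPM in E15.5 ECs, 354 in E18.5 ECs and 313 in P8 ECs, and their part in these differences was not tested.

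Cells in cycle were set against the others by Top2a, the topoisomerase made in S to M phase, at 2 UMIs. Groups of at least 50 cycling cells were compared, with E13.5 ECs (31 cycling cells) kept as an exception to complete the sorted ECs, while epithelial cells of the library labelled null fell short. In all 12 groups so chosen the ribosomal protein share was lower in cells with at least 2 Top2a UMIs, but in one, epithelial cells of the library labelled control, the direction turned once cells with multiciliated genes were left out (28.52% in 20 cycling cells against 27.82%). Cell cycle marker genes summed to 620.5 CPM in all 73 cycling cells of that group and to 2028 to 3567 CPM in cycling cells of the other 11 groups. E15.5 ECs had 22.67% (1732 cells) in cycle against 22.81% out of it, E18.5 ECs 15.67% (479 cells) against 17.34%, and P8 ECs 11.19% (388 cells) against 12.36%. The differences were -0.14, -1.67 and -1.17 points, so non-cycling ECs alone kept the order of the time points. In mesenchymal cells the share was 25.50% (3246 cells) against 27.02% at E13.5 and 20.52% (498 cells) against 23.15% at E15.5, differences of -1.52 and -2.63 points. Whole-lung ECs had 18.44% against 20.84% in the library labelled null (307 cycling cells) and 17.75% against 21.12% in the library labelled control (188 cycling cells).

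Cycling cells were deeper, with medians of 12850 against 7760 UMIs in ECs at E15.5. Among ECs of 5000 to 10000 UMIs the differences were -2.35 points for E15.5, -2.95 for E18.5 and -2.73 for P8, and among mesenchymal cells -1.64 for E13.5 and -3.48 for E15.5. In this band the E15.5 EC difference was therefore of the size of the later ones, whereas thinning every E15.5 EC to 2000 UMIs gave -0.22 points. The band held 415 of 1732 cycling and 4329 of 7013 non-cycling E15.5 ECs, so its cycling cells all lay under their median depth. Shallow E15.5 ECs had a lower share (20.64% in the shallowest bin, 23.44% in the deepest). The part of this selection in the difference was not tested.

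**Figure D5:**
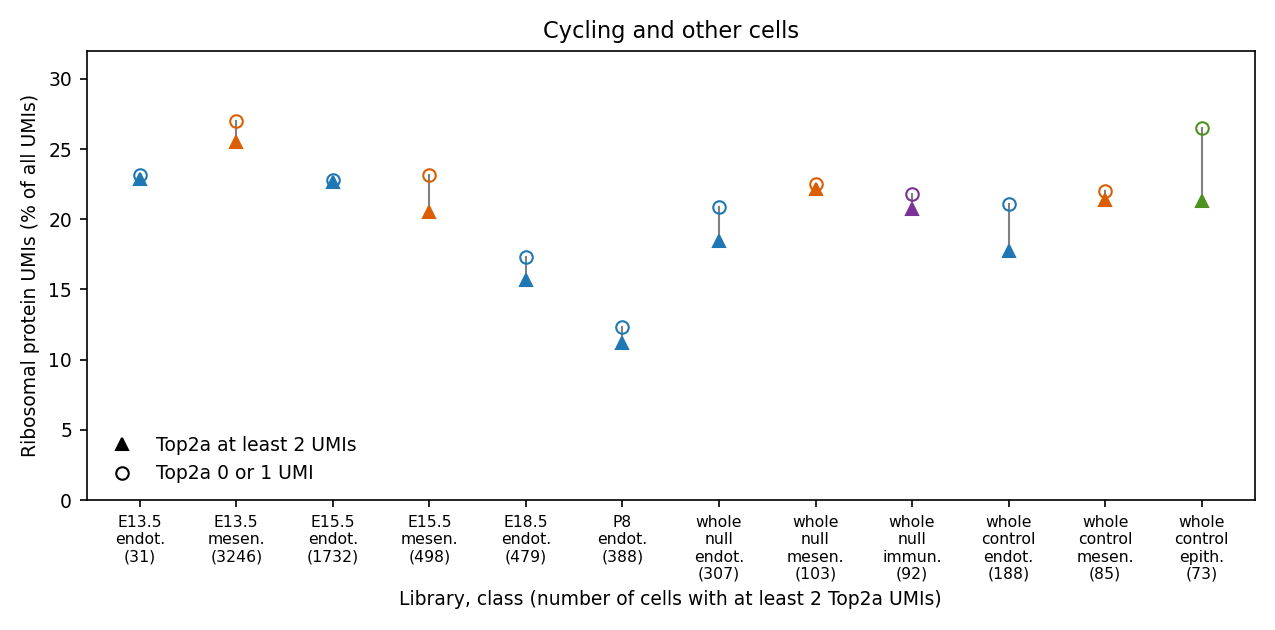
Share of ribosomal protein UMIs (y axis, % of all UMIs) in cells with at least 2 Top2a UMIs (triangles) and in the other cells (open circles) of each library and class (x axis, with the number of cycling cells). The triangle lies under the circle in all 12 groups, with differences from -0.14 points in ECs at E15.5 to -5.24 points in epithelial cells of the library labelled control, where 53 of the 73 cycling cells carried multiciliated genes and the direction turned without such cells (28.52% against 27.82%).

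By member, the difference with the cycle was small. In ECs at E15.5 the median log2 ratio of cycling over non-cycling cells was 0.00, and 0 of 77 members were 1.5-fold lower (7.33% of 3247 genes) or higher (9.79%), and 39 were below 0 (52.0%). Lowest were Rps27 (-0.32), Rps21 (-0.24) and Rpl10 (-0.20), and among the highest were Rps15 (0.36) and Rpsa (0.22), the last also known as the laminin receptor. Rps27 was among the 3 lowest and Rps15 and Rpsa among the 6 highest in E18.5 and P8 ECs and in E13.5 and E15.5 mesenchymal cells too. No member was 1.5-fold lower in these 4 comparisons, against 7.51%, 4.09%, 3.95% and 4.84% of all genes, and none higher, against 12.2%, 10.6%, 8.18% and 11.3%. Median ratios were -0.17 in E18.5 ECs, with 63 members below 0 (54.5% of all genes), and -0.14 in P8 ECs, with 70 below 0 (55.1%). In mesenchymal cells they were -0.09 for E13.5, with 65 below 0 (44.7%), and -0.19 for E15.5, with 69 below 0 (47.9%).

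In whole lungs, epithelial cells had the highest share of the 4 classes in both libraries. It was 24.04% (24.01 to 24.07, 407 cells) in the library labelled null and 25.34% (25.31 to 25.36, 636 cells) in the library labelled control. Mesenchymal cells had 22.51% (4494 cells) and 21.98% (4253 cells), immune cells 21.57% (649 cells) and 21.86% (643 cells), and ECs 20.42% and 20.58%. By pooled shares, mesenchymal cells stood above immune cells in both libraries, by less than 1 point. With the SoupX-adjusted values they stood at 23.01% against 21.53% and 21.38% against 19.93%. In the library labelled null the median cell (21.69% against 21.43%) and the mean of thinned cells (21.72% against 21.17%) kept this order. In the library labelled control both turned it, with 20.77% against 21.66% and 21.16% against 21.7%. Over ECs of the library labelled control, epithelial cells had a median log2 ratio of 0.28 for the 77 members, against -0.43 for all genes, with 7 members below 0 (68.1% of all genes), and 7 were at least 1.5-fold higher (19.3% of 3856 genes). Rpl10a (4382 against 2232 CPM) and Rps26 (3902 against 2370 CPM) were the farthest above and Rps6 (1275 against 1658 CPM) the farthest below. In immune cells of that library Rplp1, an acidic stalk protein that contacts translation factors, was farthest above ECs, with 4626 against 2629 CPM. In the library labelled null, only Rpl10a (4278 against 2323 CPM) and Rps26 (3540 against 2226 CPM) were at least 1.5-fold higher in epithelial cells than in ECs, against 19.8% of 3846 genes.

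The epithelial class spread most. Cells with at least 2 UMIs of Foxj1 and Ccdc153, genes of multiciliated cells, had 14.72% (83 cells) and 17.97% (95 cells), against 27.52% and 27.87% in the other epithelial cells, a difference of -12.8 and -9.897 points. Cells rich in the secretory genes Scgb1a1 and Scgb3a2 had 29.36% (123 cells) and 28.58% (164 cells), and those with Ager and Rtkn2, of the alveolar type 1 cell, 26.02% and 26.70%. Cells with at least 50 UMIs of the surfactant gene Sftpc had 23.91% and 25.33%, or 26.50% and 27.71% with Sftpc itself left out of the total. These groups can overlap. Of the 73 cycling epithelial cells of the library labelled control, 53 were also positive for Foxj1 and Ccdc153. Without them, cycling cells had 28.52% (20 cells) and non-cycling cells 27.82% (521 cells), and the direction of the difference of -5.24 points turned. In the library labelled null the corresponding shares were 28.33% (12 cells) and 27.46% (312 cells).

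Mesenchymal cells of the whole lungs with at least 10 UMIs of the contractile genes Acta2, Tagln and Myh11 had 20.98% against 24.02% in the others in the library labelled null, and 20.25% against 23.01% in the library labelled control. The difference was -1.86 points at E13.5 and 0.31 and 1.11 points at E15.5 and E18.5 in the sorted cells.

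The libraries labelled null and control were compared last. Labelled null minus labelled control, the share differed by -0.16 points in ECs (-0.19 to -0.12), by -1.30 points in epithelial, by -0.30 points in immune and by 0.54 points in mesenchymal cells. In ECs the median log2 ratio was 0.03, against 0.01 for all genes, and 0 of 77 members were at least 1.5-fold lower (0.784% of 3315 genes) or higher (1.03%). Lowest were Rpl26 (1201 against 1717 CPM, -0.51), Rps29 (5571 against 6806 CPM, -0.29) and Rps28 (-0.20), and highest Rpl13a (0.17), Rps14 (0.17) and Rpl17 (1729 against 1409 CPM, 0.30). Rpl26 was the lowest member in mesenchymal (-0.43), epithelial (-0.57) and immune cells (-0.35) too. With the SoupX-adjusted values the EC share was 20.32% in the library labelled null and 18.50% in the library labelled control, and the direction turned, to 1.82 points higher. It turned in immune cells too, to 1.60 points (21.53% against 19.93%), and the mesenchymal difference grew to 1.63 points (23.01% against 21.38%), while the epithelial one was -1.35 points. The adjustment took 18.34% of EC UMIs in the library labelled null and 39.86% in the library labelled control.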

How the data were processed

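Cells from 4 sorted and 2 whole lung samples were captured with a 3′ kit that tags molecules with UMIs. The authors aligned reads to mm10 with Cell Ranger 3.1 and deposited UMI count matrices, and the matrix headers carry versions 3.1.0 and 3.0.2. For the whole lungs they also deposited expected counts, which need not be whole, adjusted for free RNA with SoupX, and these served only as an alternative. The submitters' processing notes also name Seurat 3.2.2.

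The members and the gene lists were chosen with earlier results of these data known. Groups followed the sample labels. Following the study's filter, a cell needed 700 genes or more and a mitochondrial share between 0.5 and 10%, and cells with over 10% haemoglobin UMIs were left out of every class. No doublet caller was run, and cells that met the rules of 2 or more classes were left out. Pooled shares carry exact Clopper-Pearson intervals and CPM values exact Poisson intervals. An interval of a difference joins the opposite ends of both. A count of 0 was read as a limit of 3 counts. Median depth of 5647 to 9030 UMIs per cell makes these intervals narrow, but they leave out the spread between lungs. Nuclear, free and cytoplasmic RNA were not separated.

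Genes named were the 5 highest and 5 lowest members for ECs at P8 against E15.5, the 3 highest and 3 lowest for the other gene comparisons of the design (mesenchymal E15.5 against E13.5, cycling, labelled null against control), the paralogs with their partners, the ribosomal protein genes that the symbol rule misses, and the 2 highest and 2 lowest of each list. Rps4l was not analysed here, and some genes that the rule names are not reported here. Other genes named, among them Rpl29, Rpl22 and those of the class comparisons, were chosen after their values were seen. Of 31053 gene IDs, 31011 matched GENCODE M21. Start windows came from RefSeq (GRCm38.p6).

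Alternatives changed the weighting of cells, the depth per cell (thinned to 2000 UMIs), the total, the list of members, the class and cell filters, the Top2a rule, the pseudocount, the floor, the fold and the scaling. Leaving out Gm42418, comparing with the library labelled null and keeping genes by their mean over the 6 EC groups were chosen after seeing the data. The scripts were tested on simulated counts. Python 3.11.15, numpy 2.4.6, scipy 1.17.1, pandas 2.3.3 and matplotlib 3.10.9 were used.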

Additional observations from a re-analysis of the deposited data

Results flagged for a closer look

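In the whole lungs at E18.5, the share of UMIs from ribosomal protein genes differed in sign between classes when the libraries labelled null and control were compared. Labelled null minus labelled control was -0.158 points in ECs, -1.30 points in epithelial cells and -0.296 points in immune cells, but 0.537 points in mesenchymal cells. With the SoupX-adjusted values the same differences were 1.82 points in ECs, -1.35 in epithelial, 1.60 in immune and 1.63 in mesenchymal cells, so ECs and immune cells turned and the mesenchymal difference grew. With 1 library for each label, the difference between classes was not tested.

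Symbols ending in -ps lie outside the 80 genes. Rpl10-ps3, which shares 3′ stretches with Rpl10, was at 103.8 CPM in ECs at P8 and at 18.3 to 27.1 CPM in ECs of the other libraries, and Rpl10 itself was at 143 CPM at P8. Mesenchymal cells at P8 had 141 CPM of Rpl10-ps3. Rpl9-ps6 was at 59.8 CPM in ECs at P8 and at 8.495 and 8.526 CPM in those of the whole lungs, with 17.8 CPM at E13.5, 58.7 CPM at E15.5 and 44.9 CPM at E18.5 in the sorted libraries. How far reads of the parent genes enter these values was not tested.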

How the results depend on the processing

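No paired analysis was possible because each group has 1 library and the labels give no replicate numbers that groups share. Leaving out a replicate was not possible for the same reason. Of 80 alternatives to the share differences of the design, 79 kept the direction, as did all 88 ratios of 22 named genes. The exception among these was ECs of the library labelled null minus the library labelled control, which the SoupX-adjusted values turned from -0.158 to 1.82 points. Differences outside the design also turned. These were immune cells labelled null minus control (SoupX) and ECs minus mesenchymal cells at E15.5 (mean over cells). Mesenchymal minus immune cells labelled control (median cell) and the mesenchymal step from E15.5 to E18.5 (whole lung labelled null) turned as well. The causes were not tested.

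Differences in points that moved by more than their counting interval follow. For ECs, E15.5 minus E13.5, they were -0.164 with the mean over cells, -0.217 with thinning, -0.44 without mitochondrial UMIs, -0.426 with the wider list, -0.579 with stricter classes, -0.650 with cells of several classes kept and -0.0976 with no cell filter. For ECs, E18.5 minus E15.5, the same 7 settings gave -5.53, -5.47, -6.09, -5.81, -5.47, -5.36 and -5.43, and leaving out Gm42418 gave -5.53. For ECs, P8 minus E18.5, they were -4.74, -4.70, -5.22 and -5.04 in the first 4, -4.98 with cells of several classes and -4.88 without Gm42418. For mesenchymal cells, E15.5 minus E13.5, the 7 settings gave -4.19, -4.18, -4.26, -4.35, -4.03, -4.41 and -4.19.

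For cycling against other ECs at E15.5, they gave -0.207, -0.224, -0.250, -0.178, -0.0786, -0.194 and -0.0536. The band of 5000 to 10000 UMIs gave -2.35, and Top2a of 4 or more against 0 gave -0.275, so the band moved this difference most. For mesenchymal cells at E13.5 they were -1.43, -1.43, -1.65, -1.62 and -1.40 in the first 5, -1.64 in the band and -1.82 with the Top2a rule. ECs minus epithelial cells in the library labelled control gave -5.36 (mean over cells), -5.36 (thinned), -4.97 (no mitochondrial UMIs), -4.97 (wider list), -3.83 (several classes), -4.67 (no cell filter) and -7.27 (SoupX). ECs of the library labelled null minus control gave -0.108 (thinned), -0.120 (stricter classes), -0.278 (several classes) and -0.00088 (no cell filter). Sorted minus whole-lung ECs at E18.5 gave -3.44 (mean over cells), -3.68 (no mitochondrial UMIs), -3.53 (wider list), -3.34 (stricter classes), -3.53 (several classes), -3.17 (no cell filter), -1.29 (SoupX) and -3.22 (library labelled null).

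The count of 60 members lower at P8 (14.4% of all genes) was 23 at 2-fold (6.20%), 59 with thinning (14.5%), 60 with genes kept by their mean over the EC groups (14.4%), 65 without mitochondrial UMIs (15.3%) and 74 relative to the median of all genes (21.4%). Intervals cover counting error only, so differences of the size of those between the libraries labelled null and control cannot be told apart from differences between libraries.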

Other observations

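Whole-lung mesenchymal cells differed most with depth. Cut into 4 bins by UMIs per cell, their ribosomal protein share was 17.96% in the shallowest and 24.47% in the deepest bin of the library labelled null, and 17.47% and 24.46% in those of the library labelled control. Sorted mesenchymal cells at E13.5 stayed between 25.89% and 27.09% over their 4 bins. In whole-lung ECs the shallowest bin had 18.52% and 18.20%, and the other bins 20.56% to 21.03% and 20.64% to 21.41%.

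The most abundant member differed between libraries. Rpl41 led in ECs at E13.5 and E15.5, Rps29 at E18.5 in the sorted library and Rpl13 at P8, as counted by UMIs. Reads shared with copies can shift this order. The 5 leading members held 12.7 to 14.0% of member UMIs in sorted ECs, and the ratio of large-subunit to small-subunit UMIs was 1.27 at E13.5 and E15.5 and 1.23 at E18.5 and P8.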
